A study of Mus musculus with 32 samples.

Results

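The genes described here are 45 enzymes, transporters and subunits of glycolysis, of the entry of pyruvate into mitochondria and of the tricarboxylic acid (TCA) cycle, named one by one in a list and found by symbol among the 23958 gene rows of a count table. All 45 were in the table, and all 45 were among the 12651 genes that passed a filter on low counts. RNA had been measured in the frontal cortex (prelimbic and infralimbic areas) of 32 mice inoculated with gut microbiota from a human (12 mice), squirrel monkey (8 mice) or macaque (12 mice) source. The inoculated microbiota is the only treatment the labels name, it was given in all groups, and no uninoculated mice were compared. The strain, sex and age of the mice and the number of donors behind each group are not stated in the labels used here. The study asks whether microbiota of primates with larger brains alter gene expression in the mouse brain. Batches A and B held the human group, C and D the squirrel monkey group, and E and F the macaque group, so donor species and batch cannot be told apart. No plate column recorded for the samples was shared between donor groups, so plate column cannot be told apart from donor species either. Batches A and B also lay in different plate columns.

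Glycolysis splits glucose into pyruvate in the cytosol and yields a small amount of ATP. Pyruvate is reduced to lactate by lactate dehydrogenase or enters mitochondria through a carrier, where the pyruvate dehydrogenase complex feeds it into the TCA cycle, whose electrons drive the respiratory chain. The brain depends on glucose as its main fuel. Astrocytes are known for strong glycolysis and lactate release, and neurons for strong oxidative metabolism. In the cortex several steps are shared between isoenzymes, such as the aldolases encoded by Aldoa, found in most cells, and Aldoc, which is enriched in astrocytes.

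Libraries were made by TagSeq, which counts tags near the 3′ end of transcripts. Levels are given as CPM, the tags of a gene as a share of all tags of the mouse scaled to 1e6, after scaling for library composition, and since tags are not divided by transcript length, they are compared for the same gene across mice and not between genes. The total was 1035036 to 2089308 counts per mouse, with medians of 1657174.5 in the human, 1482522.5 in the squirrel monkey and 1503734.5 in the macaque group. The 45 genes together took 1.25% to 1.56% of all counts in a mouse. Their share was 1.41% ± 0.0623 in the human (SD, n = 12), 1.39% ± 0.0506 in the squirrel monkey (n = 8) and 1.40% ± 0.0838 in the macaque group (n = 12). Markers of neurons, astrocytes, oligodendrocytes, microglia and endothelial cells were detected in every group, and no marker measured was at 0 in all mice of a group. The summed level of 12 oligodendrocyte markers varied most widely, from 701 to 3785 CPM in macaque mice, 803 to 10730 CPM in human mice and 923 to 5541 CPM in squirrel monkey mice. In this bulk tissue, fewer cells of a type and less RNA per cell cannot be told apart.

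Mice given human microbiota had more Gapdh and Ogdh RNA and less Aldoa RNA than mice given macaque microbiota, and the other 42 genes did not pass the test. Thus 3 of 45 genes were called (2 higher, 1 lower), or 6.67%, beside 8.01% of all 12651 genes tested (565 or 4.47% higher and 448 or 3.54% lower). A gene was called when edgeR's quasi-likelihood test gave an adjusted p under 0.05 over all genes. The share among these enzymes was thus near the background. The median log2 fold change of the 45 genes was 0.025, beside -0.0010 for all genes. Their median size without regard to sign was 0.071, beside 0.12 for all genes. The mice of the human and macaque groups overlapped in all 45 genes, and they did so in all but 0.198% of the genes tested.

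Markers of cell types were called in the same comparison. Of 12 oligodendrocyte markers 4 were higher in human mice (Mog, Mal, Cldn11 and Gjc3), and the median log2 fold change of the 12 was 1.22. Of 6 neuron markers 2 were lower, Syt1 (-0.17) and Tubb3 (-0.23), and their summed level was 5060 to 6222 CPM in human and 5050 to 7002 CPM in macaque mice. The lists of astrocytes (8 genes), upper layer neurons (8), endothelial cells (7) and meninges and fibroblasts (6) each held 1 gene called higher. Their median log2 fold changes were 0.10, -0.22, -0.0072 and 0.36 in that order, so the upper layer list as a whole leaned lower in human mice. Fits with the oligodendrocyte or the astrocyte score as a covariate are given further on, and the part of the other cell types in the donor differences was not tested.

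The promoters of Gapdh and Aldoa are shown because these genes gave the smallest adjusted p-values and moved in opposite directions. Each window runs from 250 bases before to 50 bases after an annotated start (RefSeq, build GRCm38.p6), 5′ to 3′ on the gene's strand. Capitals mark ACGTG or GCGTG on either strand, the core letters to which hypoxia-inducible factors (HIFs), known regulators of glycolytic genes, bind.
Gapdh (chr6:125165724-125166023, minus strand): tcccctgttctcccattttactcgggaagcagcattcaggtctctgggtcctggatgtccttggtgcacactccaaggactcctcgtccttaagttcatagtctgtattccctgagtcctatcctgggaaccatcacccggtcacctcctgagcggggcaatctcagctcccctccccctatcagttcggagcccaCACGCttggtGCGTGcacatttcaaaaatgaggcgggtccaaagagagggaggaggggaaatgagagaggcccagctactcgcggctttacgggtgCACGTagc
Aldoa, start 1 (chr7:126800398-126800697, minus strand): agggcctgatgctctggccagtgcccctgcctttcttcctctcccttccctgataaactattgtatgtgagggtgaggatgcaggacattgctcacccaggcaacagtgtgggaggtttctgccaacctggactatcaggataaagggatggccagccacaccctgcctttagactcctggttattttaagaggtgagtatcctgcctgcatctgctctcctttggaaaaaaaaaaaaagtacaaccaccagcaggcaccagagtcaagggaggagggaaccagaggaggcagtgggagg
Aldoa, start 2 (chr7:126799205-126799504, minus strand): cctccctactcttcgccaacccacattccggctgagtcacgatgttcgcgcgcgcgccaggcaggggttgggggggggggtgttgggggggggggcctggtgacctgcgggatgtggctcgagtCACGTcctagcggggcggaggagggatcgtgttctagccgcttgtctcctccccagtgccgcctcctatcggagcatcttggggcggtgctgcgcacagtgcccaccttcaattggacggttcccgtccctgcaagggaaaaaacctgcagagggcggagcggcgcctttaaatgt
Aldoa, start 3 (chr7:126799129-126799428, minus strand): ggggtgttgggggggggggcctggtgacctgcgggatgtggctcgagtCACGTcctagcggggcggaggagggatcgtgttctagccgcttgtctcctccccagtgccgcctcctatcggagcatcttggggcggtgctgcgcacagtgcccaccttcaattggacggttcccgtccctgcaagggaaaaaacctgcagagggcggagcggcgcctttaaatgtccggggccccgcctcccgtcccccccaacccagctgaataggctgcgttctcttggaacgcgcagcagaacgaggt
The Gapdh window held 3 matches. Of the 3 listed starts of Aldoa, the most upstream window held 0 matches and each of the overlapping windows further downstream held 1, at the same ACGTG. The 3′ tags do not tell which Aldoa start was used. Taking the most upstream start of each gene, 42 of the 45 genes had a window in the table. ACGTG was in 13 of the 42 (31%) and in 25.2% of the windows of tested genes. GCGTG was in 24 (57.1%), beside 50.7% of tested genes. GGGCGG, the core of the GC box, was in 27 (64.3%), beside 63.1%. Over all 27025 promoters of the table these letters were in 19.6%, 32.5% and 35.9%. A match describes letters in a window, not binding.

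Gapdh (ENSMUSG00000057666, chromosome 6), the glyceraldehyde-3-phosphate dehydrogenase that makes the first NADH of glycolysis and is often used as a reference gene, was measured at 483 to 756 CPM in human mice (median 633), 435 to 668 CPM in squirrel monkey mice (median 517) and 357 to 581 CPM in macaque mice (median 507). Of the 12 human mice, 11 lay above the macaque median and 9 above the highest macaque mouse. The mean level was 631 ± 90.7 CPM (SD, n = 12) in the human group and 503 ± 57.6 CPM (n = 12) in the macaque group. The log2 fold change was 0.33 (SE 0.0765, 95% interval 0.17 to 0.48, adjusted p = 0.00487).

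In the squirrel monkey group, batch C lay at 509 to 668 CPM and batch D at 435 to 525 CPM of Gapdh, and these batches overlapped. The log2 difference of D against C was -0.32 (SE 0.125, adjusted p = 0.565) and did not pass. Between single batches, Gapdh was higher in B than in F by 0.39 on the log2 scale (SE 0.0913, adjusted p = 0.0127), and it alone of the 45 genes passed there, beside 2.31% of all genes. The differences of A against E (0.22, adjusted p = 0.292), A against F (0.29, adjusted p = 0.133) and B against E (0.33, adjusted p = 0.107) had the same sign and did not pass. The Gapdh call was kept in all 32 fits that left out 1 mouse (log2 fold change 0.29 to 0.36). It was lost without batch B (0.25, adjusted p = 0.123), without batch F (0.29, adjusted p = 0.108) and with the library total as a covariate (0.25, adjusted p = 0.0584). Summing the counts per batch lost the Gapdh call as well.

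The annotation lists 120 further genes that nearly repeat the 3′ end of Gapdh, so its count is uncertain. Their counts came to 15.4% of Gapdh's own in human mice, 18.9% in squirrel monkey mice and 19.8% in macaque mice. With these counts added, the log2 fold change of human against macaque was 0.28 and the adjusted p 0.00515. Eno1 and Ldhb had 1 such copy each, whose counts over all mice came to 0.661% and 0.0516% of the gene's own.

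Aldoa (ENSMUSG00000030695, chromosome 7), the aldolase found in most cells, ranged from 1147 to 1607 CPM in human mice (median 1325), 1303 to 1528 CPM in squirrel monkey mice (median 1413) and 1340 to 1937 CPM in macaque mice (median 1537). Of the 12 human mice, 6 lay below the lowest macaque mouse and 1 above the macaque median. The log2 fold change of human against macaque was -0.22 (SE 0.0614, 95% interval -0.35 to -0.10, adjusted p = 0.0174). All 4 pairs of a human with a macaque batch gave a lower human level, from -0.34 (A against E, adjusted p = 0.0562) to -0.16 (B against F, adjusted p = 0.332), and none passed alone. The call was kept in all 32 fits that left out 1 mouse (-0.25 to -0.19). It was lost without batch A (-0.19, adjusted p = 0.124), without batch E (-0.20, adjusted p = 0.124) and with the library total as a covariate (-0.22, adjusted p = 0.0555). Summing the counts per batch lost the Aldoa call as well. Aldoa overlaps Fam57b on the opposite strand, and since the use of strand in counting is not given, its count is uncertain.

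Ogdh (ENSMUSG00000020456, chromosome 11), the E1 subunit of the 2-oxoglutarate dehydrogenase complex, a step at which the TCA cycle releases carbon dioxide, was at 175 to 231 CPM in human mice (median 199), 159 to 191 CPM in squirrel monkey mice (median 182) and 163 to 207 CPM in macaque mice (median 179). Of the 12 human mice, 11 lay above the macaque median and 3 above the highest macaque mouse. The log2 fold change of human against macaque was 0.16 (SE 0.0496, 95% interval 0.055 to 0.26, adjusted p = 0.0449). The batch means were 201 CPM in A, 201 CPM in B, 184 CPM in C, 174 CPM in D, 180 CPM in E and 180 CPM in F. The 4 human against macaque batch differences all lay between 0.15 and 0.16 on the log2 scale. This call was lost in 18 of the 32 fits that left out 1 mouse (0.14 to 0.17, adjusted p up to 0.0867), without any one of the 6 batches, without a filter on low counts (0.16, adjusted p = 0.0996), with the library total as a covariate (0.16, adjusted p = 0.0706) and with the oligodendrocyte score as a covariate (0.13, adjusted p = 0.150). Summing the counts per batch lost the Ogdh call as well.

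**Figure D1:**
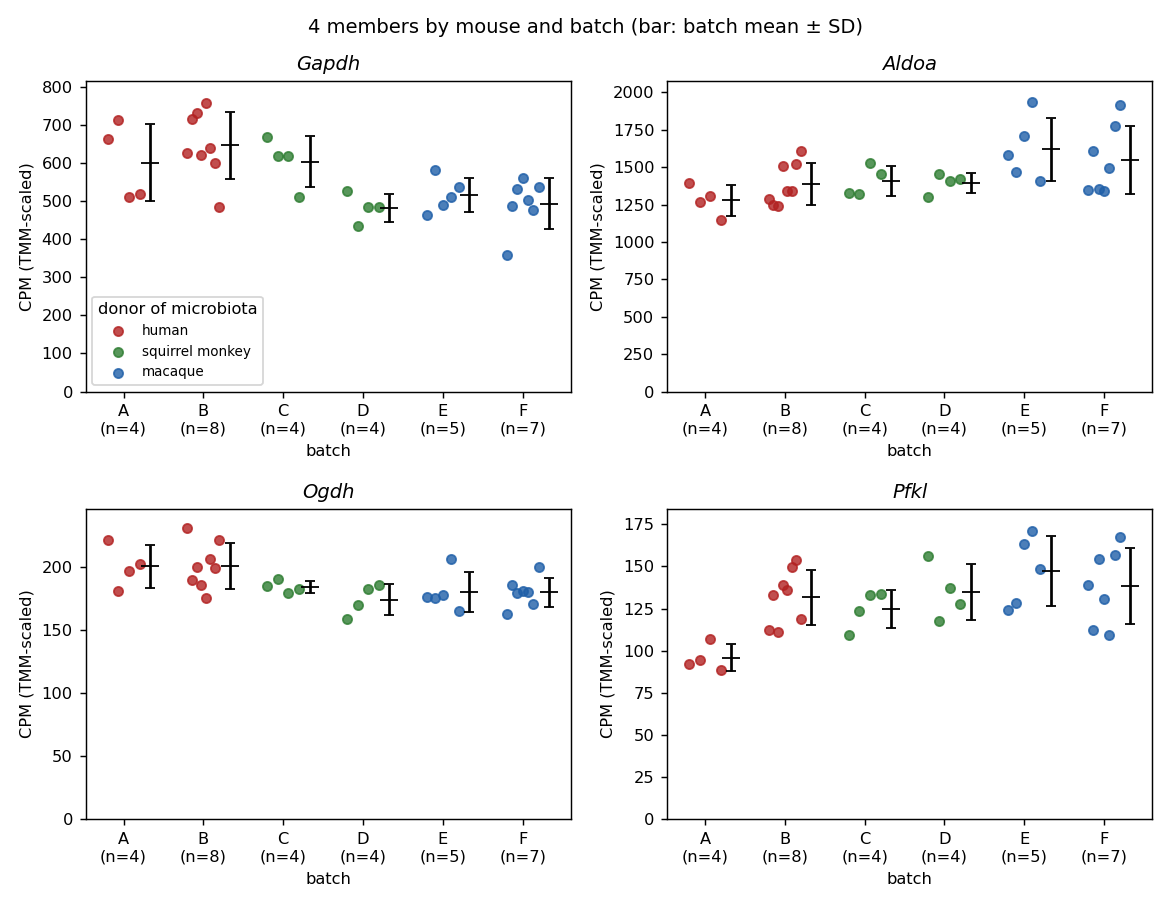
Level of Gapdh, Aldoa, Ogdh and Pfkl in each of the 32 mice by batch, in CPM on axes that start at 0; points are mice, coloured by donor species, and bars give the batch mean ± SD. Gapdh in batch D (435 to 525 CPM) lies with the macaque batches, and Pfkl is at 88.7 to 107 CPM in batch A and 111 to 154 CPM in batch B.

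When all donor groups were compared in 1 test, Gapdh (adjusted p = 0.0150) and Aldoa (adjusted p = 0.0413) passed, or 4.44% of the 45 genes, beside 6.15% of all genes. Ogdh did not (adjusted p = 0.0605). In squirrel monkey against macaque, edgeR, DESeq2 and limma voom called 0 of the 45 genes, and edgeR called 0.64% of all genes. At an unadjusted p under 0.05 there were 6 of 45 genes (13.3%), beside 13.2% of all genes. In human against squirrel monkey the same 3 tools called 0 of the 45, with edgeR calling 0.134% of all genes, and 6 of 45 (13.3%) had an unadjusted p under 0.05, beside 10% of all genes. The comparisons share their groups, so they are not independent of each other. Gapdh differed by 0.11 on the log2 scale (SE 0.0857, adjusted p = 0.629) between squirrel monkey and macaque mice and by 0.22 (SE 0.0858, adjusted p = 0.339) between human and squirrel monkey mice. Aldoa differed by -0.17 (SE 0.0689, adjusted p = 0.263) and -0.054 (SE 0.0686, adjusted p = 0.854).

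**Figure D2:**
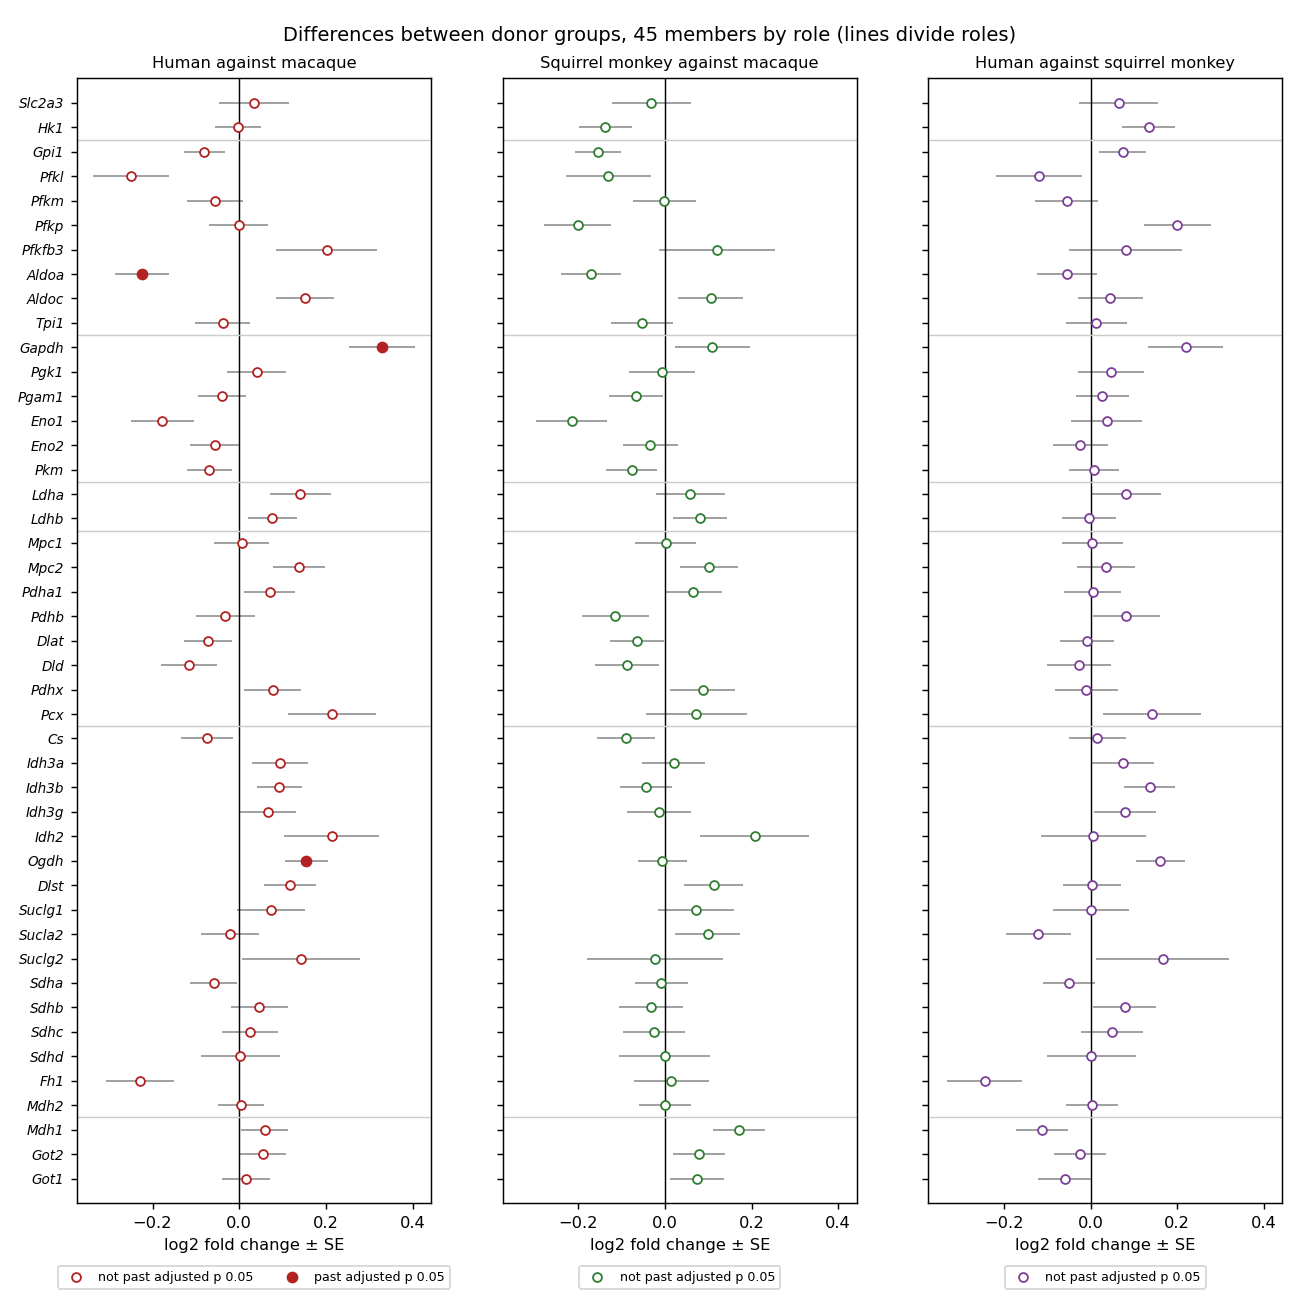
Log2 fold change ± SE of the 45 genes in the comparisons of donor groups, ordered by role with lines between roles; filled points passed an adjusted p of 0.05. Filled points appear in human against macaque alone, where Gapdh (0.33) and Ogdh (0.16) are to the right of 0 and Aldoa (-0.22) is to the left.

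Slc2a3, the neuronal glucose transporter, and Hk1, the main brain hexokinase, had log2 fold changes of 0.034 (SE 0.0809) and -0.0027 (SE 0.0539) in human against macaque. Hk1 was at 188 to 259 CPM in human, 183 to 217 CPM in squirrel monkey and 179 to 268 CPM in macaque mice, and these ranges overlapped. Of the 8 genes of upper glycolysis, Aldoa alone passed, and the others ran from -0.25 (Pfkl) to 0.20 (Pfkfb3). Pfkfb3, whose product makes an activator of phosphofructokinase, was at 22.1 to 46.0 CPM in human and 15.3 to 34.0 CPM in macaque mice (adjusted p = 0.312).

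Phosphofructokinase, which catalyses the committed step of glycolysis, is encoded by Pfkl, Pfkm and Pfkp. Pfkm, the muscle type, had a log2 fold change of -0.057 (SE 0.0644) in human against macaque, and Pfkp, the platelet type, -0.0011 (SE 0.0682). Pfkl, the liver type, was at 88.7 to 154 CPM in human mice (median 116), 109 to 156 CPM in squirrel monkey mice (median 130) and 109 to 171 CPM in macaque mice (median 144). Its log2 fold change of human against macaque was -0.25 (SE 0.0878, adjusted p = 0.0710) and did not pass.

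Pfkl was at a lower level in batch A than in batch B of the human group. The 4 mice of batch A had 92.3, 94.8, 107 and 88.7 CPM, and the 8 mice of batch B had 111 to 154 CPM. The share of all genes without overlap between these batches was not counted, so these ranges are given as a description. The log2 difference of B against A was 0.46 (SE 0.115, adjusted p = 0.219) by edgeR, with the adjusted p at 0.0485 by DESeq2. The share of all genes that DESeq2 called between these batches was not counted. Batch A was lower than macaque batch E by 0.62 (log2 fold change -0.62, SE 0.125, adjusted p = 0.00293) and than batch F (-0.54, SE 0.118, adjusted p = 0.00559). Pfkl was the 1 gene of 45 called in each of these, beside 3.45% of all genes in A against E and 3.94% in A against F. In B against E edgeR called 0 of 45, beside 1.25% of all genes, with 6 at an unadjusted p under 0.05. The share of all genes at that unadjusted p was not counted for this pair of batches. Batch B differed from them by -0.16 (adjusted p = 0.513) and -0.074 (adjusted p = 0.782). Without batch B the human against macaque difference was -0.58 (adjusted p = 0.000719), and without batch A it was -0.11 (adjusted p = 0.519).

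In lower glycolysis, Gapdh alone passed among 6 genes. Pgk1, the kinase that makes the first ATP of the payoff phase, had a log2 fold change of 0.040 (SE 0.0682), and Pgam1, the mutase after it, -0.039 (SE 0.0548). Eno1, the enolase of most cells, was at 233 to 386 CPM in human, 235 to 314 CPM in squirrel monkey and 294 to 403 CPM in macaque mice. Its differences from macaque were -0.18 for human (SE 0.0727, adjusted p = 0.125) and -0.21 for squirrel monkey (SE 0.0821, adjusted p = 0.233). Eno2, the enolase of neurons, differed by -0.057 (SE 0.0570) and -0.033 (SE 0.0638). Pkm, pyruvate kinase, ranged over 1222 to 1611 CPM in human, 1262 to 1469 CPM in squirrel monkey and 1223 to 1669 CPM in macaque mice and differed by -0.069 (SE 0.0520) and -0.077 (SE 0.0583). Pkm overlaps Gm49759 on the same strand. Opposite-strand overlaps also affect Gpi1, Pfkm, Pfkp, Tpi1, Mpc1, Pdha1, Idh3b and Got2, which with Aldoa makes 9 of the 45 genes whose counts are uncertain in this way.

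Neither lactate dehydrogenase gene passed. Ldha, whose subunit favours lactate formation, was at 296 to 397 CPM in human and 225 to 375 CPM in macaque mice (log2 fold change 0.14, SE 0.0709, adjusted p = 0.228). Ldhb, whose subunit favours pyruvate formation, was at 449 to 649, 478 to 579 and 453 to 615 CPM in human, squirrel monkey and macaque mice (log2 fold change of human against macaque 0.077, SE 0.0560).

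Pyruvate entry held 8 genes, and 0 of them passed by edgeR, DESeq2 or limma voom in human against macaque. By edgeR, 2 of them (Mpc2 and Pcx) had an unadjusted p under 0.05. Over the whole list 9 of 45 genes (20%) did so, beside 23.1% of all genes tested. Mpc2, a subunit of the mitochondrial pyruvate carrier, was at 170 to 233 CPM in human and 160 to 225 CPM in macaque mice (0.14, SE 0.0593, adjusted p = 0.149), and its partner Mpc1 differed by 0.0053 (SE 0.0629). Pcx, the pyruvate carboxylase that refills the TCA cycle and is known from astrocytes, was at 25.8 to 52.7 CPM and 27.1 to 46.9 CPM (0.21, SE 0.101, adjusted p = 0.190). The subunits of pyruvate dehydrogenase did not share a sign, with Pdha1 at 0.070 (SE 0.0588), Pdhb at -0.032 (SE 0.0688), Dlat at -0.071 (SE 0.0549), Dld at -0.12 (SE 0.0654) and Pdhx at 0.077 (SE 0.0662).

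Among 16 TCA cycle genes, Ogdh alone passed in human against macaque. The median log2 fold change of the 16 was 0.056, from -0.23 (Fh1) to 0.21 (Idh2). Fh1, the fumarase, was at 40.0 to 66.4 CPM in human mice (median 54.2), 49.9 to 70.1 CPM in squirrel monkey mice (median 63.8) and 55.2 to 72.6 CPM in macaque mice (median 61.4), with 6 of 12 human mice below the lowest macaque mouse. Its log2 fold change was -0.23 (SE 0.0775, adjusted p = 0.0596), and limma voom did call it. Dlst, the E2 subunit beside Ogdh in the same complex, differed by 0.12 (SE 0.0602, adjusted p = 0.242) and passed without batch F (0.26, adjusted p = 0.0384). Citrate synthase, Cs, which starts the cycle, differed by -0.074 (SE 0.0589). The 4 succinate dehydrogenase genes, which are also complex II of the respiratory chain, lay between -0.059 (Sdha) and 0.047 (Sdhb). Mdh2, the malate dehydrogenase of the cycle, was at 355 to 483, 407 to 466 and 367 to 514 CPM in human, squirrel monkey and macaque mice, with a log2 fold change of 0.0036 (SE 0.0534).

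The malate-aspartate shuttle carries reducing equivalents of glycolysis into mitochondria. Its cytosolic malate dehydrogenase, Mdh1, was at 613 to 771 CPM in human, 615 to 808 CPM in squirrel monkey and 576 to 746 CPM in macaque mice. The log2 fold change of squirrel monkey against macaque was 0.17 (SE 0.0601, adjusted p = 0.181). The aminotransferases Got1 and Got2 differed by 0.074 (SE 0.0629) and 0.079 (SE 0.0599) in that comparison.

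Isoenzymes of one step were set side by side as log2 ratios within each mouse, which need no scaling between libraries and are given as a description. The log2 ratio of Aldoa to Aldoc was 0.81 to 1.43 in human mice (median 1.17), 1.03 to 1.54 in squirrel monkey mice (median 1.21) and 1.02 to 1.84 in macaque mice (median 1.54). All 12 human and all 8 squirrel monkey mice lay below the macaque median. Aldoa had been called lower in human mice in the same data, so this ratio does not stand apart from that call. The share of other gene pairs with such a split was not counted. Aldoc itself had a log2 fold change of 0.15 in human against macaque (SE 0.0668, adjusted p = 0.160). The log2 ratio of Mdh1 to Mdh2 was 0.54 to 0.79 in human (median 0.65), 0.59 to 0.88 in squirrel monkey (median 0.79) and 0.44 to 0.73 in macaque mice (median 0.61). The ratios of Ldha to Ldhb had medians of -0.60, -0.69 and -0.66 in human, squirrel monkey and macaque mice, and their ranges overlapped widely. Ratios of Pfkl to Pfkm, Eno1 to Eno2, Suclg2 to Sucla2, Got1 to Got2 and Pfkp to Pfkm were computed as well. In that order, 10, 8, 5, 8 and 6 of the 12 human mice lay below the macaque median. Of the 8 squirrel monkey mice, 7, 7, 5, 4 and 7 did.

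Between batches of the same donor species, many of the 45 genes leaned one way by small amounts. In batch B against batch A, 36 of 45 (80%) had a positive log2 difference, beside 50.1% of all genes, with a median of 0.10 beside 0.00091. In batch D against batch C, 9 of 45 (20%) were positive, beside 49.5% of all genes, with a median of -0.078 beside -0.0022. In batch F against batch E the counts were 18 of 45 (40%) and 52.2%, with a median of -0.033 beside 0.0073. All 6 genes of lower glycolysis were on the positive side in B against A, from 0.11 to 0.21. In edgeR's test 0 of 45 genes passed in each of these comparisons, in which 0.0237%, 0% and 0% of all genes were called. At an unadjusted p under 0.05 there were 8 (17.8%), 4 (8.89%) and 3 (6.67%) of the 45, beside 11.6%, 6.98% and 3.15% of all genes. Besides Pfkl in B against A by DESeq2, neither DESeq2 nor limma voom called any of the 45 there. Signs leaned in donor comparisons too. In human against squirrel monkey 31 of 45 (68.9%) were positive, beside 52.4% of all genes. In human against macaque it was 27 (60%), beside 49.8%, and in squirrel monkey against macaque 21 (46.7%), beside 50.2%. The batch medians given above were larger in size than the donor medians of 0.025 (human against macaque), -0.0059 (squirrel monkey against macaque) and 0.014 (human against squirrel monkey). Batches hold 4 to 8 mice and donor groups 8 to 12, so the batch medians are less precise, and the difference in size was not tested.

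**Figure D3:**
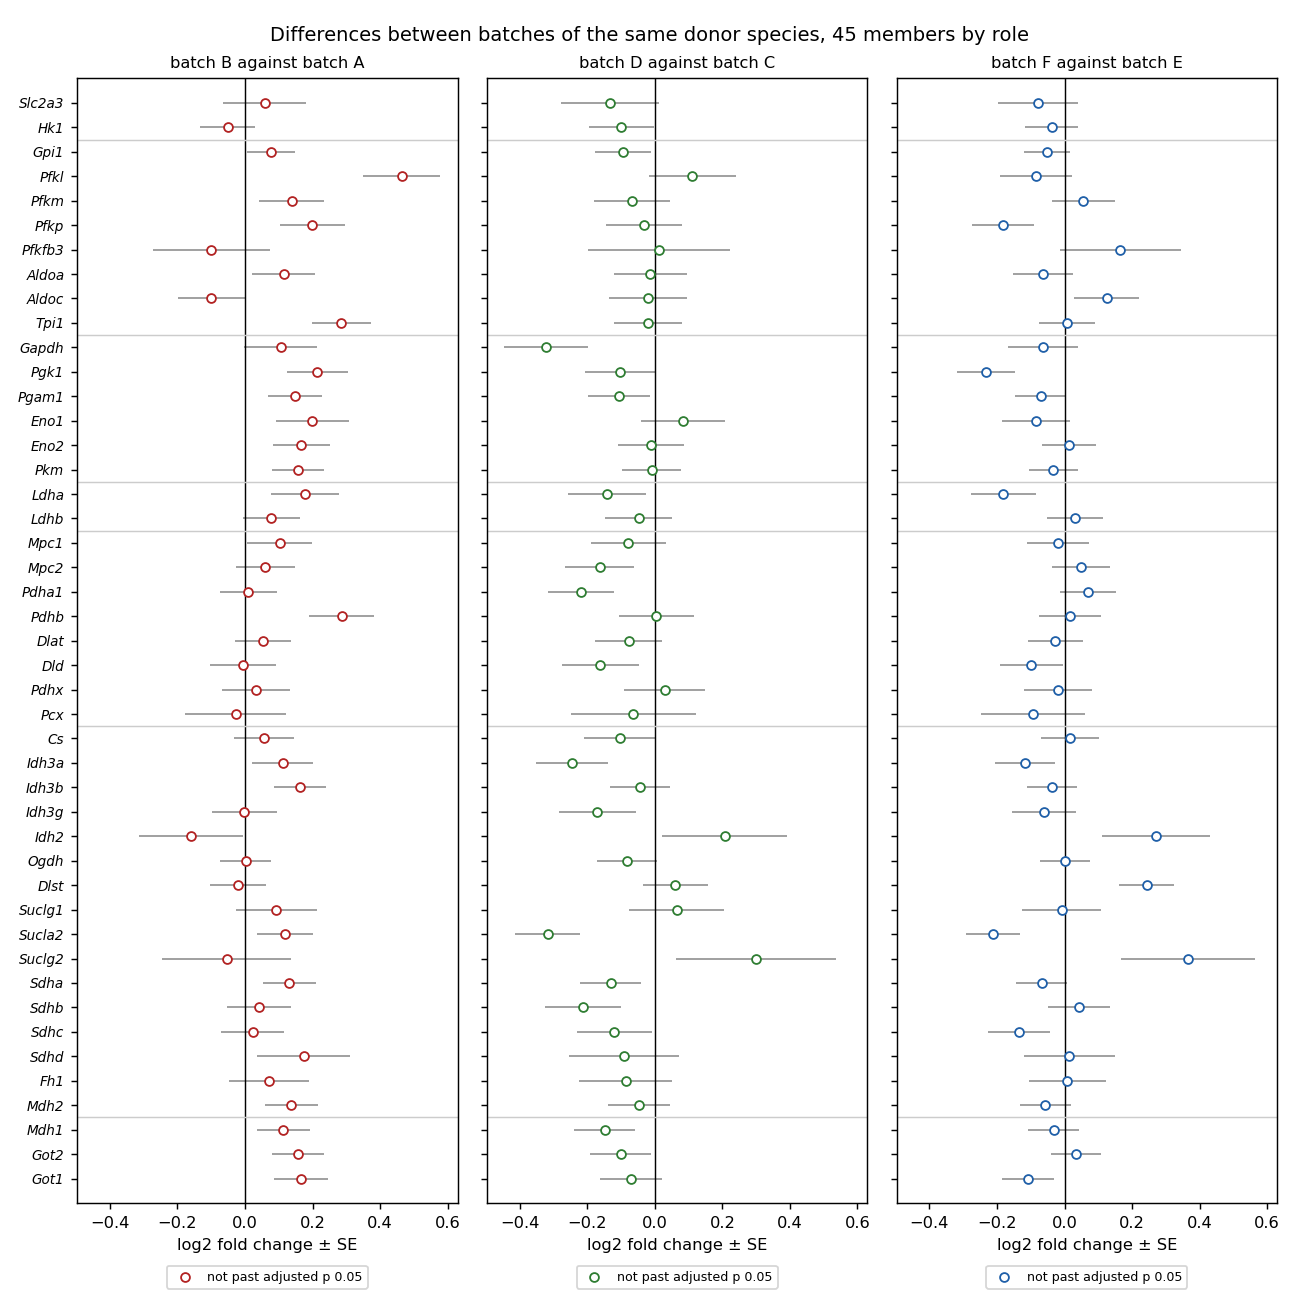
Log2 fold change ± SE of the 45 genes between batches of the same donor species, by role; open points did not pass an adjusted p of 0.05. In B against A 36 of 45 points lie to the right of 0, with Pfkl at 0.46, and in D against C 36 of 45 lie to the left.

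The enzymes varied less between mice than most genes. The coefficient of variation within donor groups had a median of 10.8% over the 45 genes, from 7.20% (Gpi1) to 24.6% (Suclg2), beside 19.1% for all genes tested. Their counts were also higher, with a median mean count of 284 beside 50.8. The biological part of the variation estimated by edgeR had a median of 9.44% beside 12.2%. Gpi1 is the isomerase after hexokinase, and Suclg2 encodes the GTP-forming subunit of succinyl-CoA ligase. The low-count Suclg2 ranged from 15 to 40.9 CPM over the 32 mice. Pfkfb3 (20.3%) and Idh2 (20.5%) followed it.

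For some of the 45 genes, part of the variation between mice went with cell type markers. An astrocyte score, the mean of 8 marker genes on the log2 scale centred on their mean over the 32 mice, ran from -0.55 to 0.56. It spanned similar ranges in the groups, -0.40 to 0.56 in human, -0.55 to 0.39 in squirrel monkey and -0.43 to 0.47 in macaque mice. Within donor groups, 4 of 45 genes went with this score (3 higher, 1 lower), beside 16.8% of all genes outside the score. At an unadjusted p under 0.05 there were 8 of 45 (17.8%), beside 29.3% of all genes, and with batches as levels 15 of 45 (33.3%), beside 32.2%. The enzymes thus did not follow this score more often than other genes over all mice. Aldoc rose by 0.45 per unit of score (SE 0.0590, adjusted p = 4.4e-07). Idh2, the NADP-linked isocitrate dehydrogenase of mitochondria, rose by 0.65 (SE 0.111, adjusted p = 4.1e-05). Suclg1, the shared subunit of succinyl-CoA ligase, rose by 0.36 (SE 0.0931, adjusted p = 0.00570), and Pfkp fell by 0.27 (SE 0.0854, adjusted p = 0.0234).

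In the mouse of lowest score (squirrel monkey mouse 5), Aldoc was at 448 CPM and Idh2 at 47.9 CPM. In the mouse of highest score (human mouse 1) they were at 733 CPM and 79.6 CPM. Without the 2 mice farthest from the median score the same 4 genes passed (9.03% of all genes). With the 6 batches as levels (20.3% of all genes) Aldoc (slope 0.44), Idh2 (0.61) and Suclg1 (0.39) passed again, Sdhd, an anchor subunit of succinate dehydrogenase, passed as well (0.36, adjusted p = 0.0278), and Pfkp did not (-0.22, adjusted p = 0.0504). With the astrocyte score as a covariate, the human against macaque log2 fold changes of Gapdh (0.35, adjusted p = 0.000773) and Aldoa (-0.24, adjusted p = 0.00554) passed, Ogdh (0.14, adjusted p = 0.0509) did not, and Fh1 did (-0.24, adjusted p = 0.0464).

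**Figure D4:**
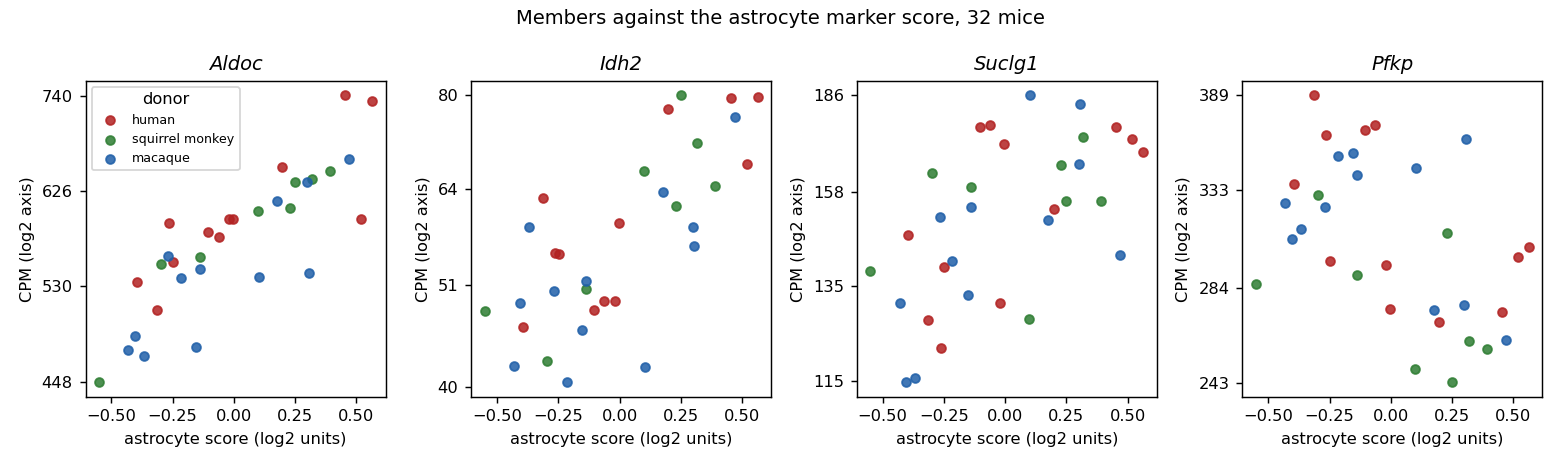
Level of Aldoc, Idh2, Suclg1 and Pfkp in CPM (log2 axis) against the astrocyte score (log2 units) in 32 mice, coloured by donor species. Aldoc, Idh2 and Suclg1 are higher in mice of higher score (slopes 0.45, 0.65 and 0.36), and Pfkp is lower (-0.27).

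Scores of other cell types were fitted in the same way. A score of 6 neuron markers went with Pgk1 (slope 1.10), Pgam1 (0.88), Dld (0.99), Sucla2 (1.02) and Mdh1 (0.78), or 5 of 45 beside 1.89% of all genes. Slopes on this score were positive for 41 of 45 genes, beside 49.9% of all genes, with a median of 0.62 beside -0.0017. At an unadjusted p under 0.05 there were 29 of 45 (64.4%), beside 19.1% of all genes. Without the 2 farthest mice 0 of 45 passed by edgeR, beside 0.38% of all genes, with adjusted p-values of the 5 genes from 0.0601 to 0.0795 and 20 of 45 at an unadjusted p under 0.05 (15.2% of all genes). With batches as levels 0 of 45 passed by edgeR, beside 0.182%, with 23 of 45 at an unadjusted p under 0.05 (13.4% of all genes).

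A score of 8 upper layer neuron markers went with 6 genes, all lower (Aldoc, Idh2, Ogdh, Suclg1, Sdhc and Sdhd), beside 14.8% of all genes. The same 6 passed with batches as levels, beside 17.4%, and Aldoc, Idh2 and Suclg1 without the 2 farthest mice, beside 8.96%. Aldoc and Idh2 also rose, and Pfkp fell, with the scores of oligodendrocyte precursors (3 of 45, beside 10.7% of all genes), endothelial cells (3 of 45, beside 3.91%) and meninges and fibroblasts (4 of 45 with Pfkl, which fell, beside 9.57%). Aldoc and Eno1 rose with the microglia score (2 of 45, beside 8.71%), and Sdhc with the deep layer neuron score (1 of 45, beside 0.91%). The scores share mice and are not independent of each other. With the scores of red cells, choroid plexus, striatal neurons and immediate early genes edgeR called 0 of 45 genes, beside 0%, 0.0237%, 0.324% and 0.0316% of all genes. At an unadjusted p under 0.05 there were 5 (11.1%), 17 (37.8%), 3 (6.67%) and 0 of the 45, beside 6.64%, 13.8%, 6.03% and 5.79% of all genes. On the choroid plexus score, which rests on 2 markers, 38 of 45 slopes were negative, with 47.9% of all genes positive. With batches as levels that score had 5 of 45 (11.1%) at an unadjusted p under 0.05, beside 5.38% of all genes.

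With the score of 12 oligodendrocyte markers 0 of 45 genes passed by edgeR, beside 5.94% of all genes. At an unadjusted p under 0.05 there were 4 of 45 (8.89%), beside 18% of all genes. With the oligodendrocyte score as a covariate of human against macaque, Gapdh (0.37, adjusted p = 0.00220) and Aldoa (-0.22, adjusted p = 0.0306) passed.

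Beyond the 45 genes, 6 lists of related genes were examined in human against macaque. Of 81 such genes tested, 8 were higher and 2 lower, or 12.3%, beside the 8.01% of all genes (4.47% higher and 3.54% lower) given above. The lists were chosen with earlier results of these data known, so this share is given as a description. In other glycolysis and transport genes 2 of 19 passed, both higher. Bsg, the chaperone of lactate transporters, was at 353 to 468 CPM in human and 304 to 419 CPM in macaque mice (log2 fold change 0.21, SE 0.0576, adjusted p = 0.0178). Gpd1, the cytosolic glycerol-3-phosphate dehydrogenase, rose by 0.39 (SE 0.106, adjusted p = 0.0147). In regulators of pyruvate dehydrogenase 1 of 8 passed: Pdk1, a kinase that inhibits the complex, fell by 0.27 (SE 0.0860, adjusted p = 0.0423).

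In other TCA, anaplerosis and carrier genes 2 of 22 passed, both higher. Ogdhl, a brain relative of Ogdh, rose by 0.25 (SE 0.0747, adjusted p = 0.0284), from 52.5 CPM (macaque median) to 62.9 CPM (human median). Me3, a mitochondrial malic enzyme, rose by 0.41 (SE 0.0989, adjusted p = 0.00662). In the pentose phosphate pathway 1 of 8 passed, Pgls, which fell by 0.43 (SE 0.125, adjusted p = 0.0269). In glycogen metabolism 1 of 9 passed. Gys1, the glycogen synthase of brain and muscle, was at 24.4 to 34.7 CPM in human, 22.1 to 35 CPM in squirrel monkey and 17.1 to 30.4 CPM in macaque mice. It rose by 0.48 (SE 0.0906, adjusted p = 0.000466). The counts of Gpd1, Me3 and Gys1 are uncertain, since each shares its locus with a gene of the other strand.

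In the response to hypoxia-inducible factor 3 of 15 passed, all higher: Ddit4, a stress-induced inhibitor of mTORC1 (0.70, SE 0.212, adjusted p = 0.0342), P4ha2, a collagen prolyl hydroxylase (0.43, SE 0.130, adjusted p = 0.0342), and Ndrg1, also known from myelinating cells (0.57, SE 0.172, adjusted p = 0.0321). Ndrg1 overlaps 2 genes of the other strand, so its count is uncertain too. Hif1a itself differed by -0.15 (adjusted p = 0.225) and Vegfa by 0.091 (adjusted p = 0.649). Ndrg1 rose with the oligodendrocyte score by 0.33 per unit (adjusted p = 5.8e-06), and with that score as a covariate its donor difference was 0.25 (adjusted p = 0.266). Under the same covariate Gpd1 (0.33, adjusted p = 0.0641), Pdk1 (-0.21, adjusted p = 0.156), Pgls (-0.40, adjusted p = 0.0648), Ddit4 (0.58, adjusted p = 0.113) and P4ha2 (0.43, adjusted p = 0.0531) did not pass, whereas Bsg (0.20), Ogdhl (0.26), Me3 (0.42) and Gys1 (0.46) did. In the other donor comparisons 0 of 81 passed by edgeR, with 12 of 81 (14.8%) at an unadjusted p under 0.05 in squirrel monkey against macaque, beside 13.2% of all genes, and 9 (11.1%) in human against squirrel monkey, beside 10%.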

How the data were processed

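The deposited table holds raw whole-number counts per Ensembl gene. Per the labels' protocols, total RNA was extracted with a magnetic bead kit and read as single reads after TagSeq; GRCm39 is the build that the submitters' processing notes name. Aligner, counting tool and strand setting were not given in the sources used here. In the table, 3 columns matched no sample and were not used, and rows without a symbol held 0.031% of counts.

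Tests were run with edgeR 4.0.16 (R 4.3.3) after filterByExpr by donor group (at least 10 counts, at least 15 in total; TMM factors 0.955 to 1.04). The quasi-likelihood test had the donor group as its only term over all 32 mice, or the 6 batches for differences between batches, with Benjamini-Hochberg adjustment over 12651 genes. The authors' labels do not say that mice came from separate cages or donors, so p-values measure the spread between these mice. Among 160 pairs within a donor species, 0 were identical libraries. Marker scores were added to the fit to test associations. Copies and overlaps came from GENCODE M21, another build, so no coordinates of counted genes are given. DESeq2 1.42.0 and limma 3.58.1 were alternatives. The test was also run on simulated counts drawn independently for each mouse without batch differences, so that run cannot check calls under the batch design here. All 45 genes could be named; full values are given for those past the threshold, for 1 abundant gene per role and for isoenzymes. The genes and lists were chosen with earlier results of these data known.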

Additional observations from a re-analysis of the deposited data

Results flagged for a closer look

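These 3 values stood far from the other mice of their group, among 75 sets of 4 to 8 mice examined (45 genes in the squirrel monkey group and 5 genes in each batch); chance alone flags about 1 set in 20. Slc2a3, the neuronal glucose transporter, was at 146 CPM in squirrel monkey mouse 3, against 103 to 118 CPM in the other squirrel monkey mice. Eno1 was at 235 CPM in squirrel monkey mouse 2, against 282 to 314 CPM in the others. Gapdh was at 357 CPM in macaque mouse 6, against 477 to 561 CPM in the other mice of batch F.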

How the results depend on the processing

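Under DESeq2 size factors, unscaled library totals, a minimum mean of 5 CPM, and DESeq2, human against macaque called Gapdh, Aldoa and Ogdh again. Without a filter on low counts Ogdh was lost. Library totals alone moved the split of all genes called from 565 higher and 448 lower to 673 and 321. Of the 45 genes, 0 were called in human against macaque with the library total as a covariate and 0 with counts summed per batch, and 1 without batch A and 1 without batch E (Gapdh both times); with the batch sums the adjusted p was 0.0504 for Gapdh, 0.0585 for Aldoa and 0.282 for Ogdh. The cause was not tested. Without batch B it was 4 (Pfkl, Aldoa, Tpi1 and Eno1). Leaving out 1 mouse at a time gave 2 to 6 genes, with 6 without human mouse 11. For any donor group the count was 1 without a filter on low counts and 1 to 3 when leaving out 1 mouse. DESeq2 called 1 of the 45 genes, Pfkl, in batch B against batch A, where its calls over all genes were not counted.

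Counts over all genes moved as follows. Human against macaque gave 574 genes with the library total as a covariate, 506 with batch sums, 479 without batch A, 392 without E and 336 without F, and 772 to 1153 when leaving out 1 mouse. Squirrel monkey against macaque gave 156 by DESeq2, 292 by limma voom, 25 with the oligodendrocyte score and 140 with the astrocyte score as a covariate, 203 with batch sums, 144 without batch B, 2 without C, 11 without E and 0 without F, and 24 to 137 when leaving out 1 mouse. Human against squirrel monkey gave 1 without a filter, 97 by DESeq2, 80 by limma voom, 27 with the oligodendrocyte score, 57 with the astrocyte score, 1 with the library total, 1 with batch sums, 3 without batch A, 57 without B, 64 without C, 1 without D, 2 without E and 4 without F, and 2 to 72 when leaving out 1 mouse. Among the 45 genes, no called value of a donor comparison changed sign under these alternatives. In the fits that left out 1 mouse, signs were checked for Gapdh, Aldoa, Ogdh, Pfkl and Fh1 only. The signs of genes outside the list were not checked. The astrocyte score and copy fits were chosen after seeing the data. No paired analysis was possible because the labels give no replicate numbers that the donor groups share.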
